A study of Mus musculus with 6 samples.

Results

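Notch signalling was described through 9 genes, which are 9 of the 31253 genes counted in every library: the ligand genes Dll1 and Jag1, the receptor genes Notch1 and Notch2, the transcription factor gene Rbpj, the coactivator gene Maml2 and the target genes Hes1, Hes5 and Hey1. They were taken by symbol from the gene table of the files. They were chosen by values measured in these same libraries: Hes5 was lower with sevoflurane in astrocytes and Maml2 was lower in oligodendrocyte precursors. For that reason all values in those 2 cell classes are given as a description, with no test, and tests are given only for the 5 other classes.

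Old mice breathed air (Control) or 2% sevoflurane, an inhaled general anaesthetic, for 6 h, and the hippocampus was taken 24 h later. Each group has 3 libraries, and both groups went through the same collagenase digestion and freezing of the cell suspension before droplet capture by 10x Genomics with 3′ v3.1 chemistry, in which each captured transcript carries a unique molecular identifier (UMI). Strain, sex and age in months are not given in the sources used here. Nothing beyond the statement that 6 animals were used ties a library to an animal. A p-value here sets a group difference against the scatter between these libraries, which may be technical in part.

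Notch receptors are cell surface proteins that are switched on by ligands on a neighbouring cell. Ligand binding lets proteases cut the receptor, and its free intracellular part enters the nucleus, where it joins the DNA-binding protein RBPJ and a Mastermind-like coactivator such as MAML2 to turn on HES and HEY genes, which encode transcriptional repressors. In the adult brain the pathway is known for keeping neural stem cells quiescent, for astrocyte identity and for the patterning of blood vessels.

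In the GENCODE M21 annotation of GRCm38, matched by gene ID, Hes5 is the shortest of the 9 genes, at 1.449 kb on chromosome 4 (154960923 to 154962371, plus strand), and Maml2 the longest, at 411.4 kb on chromosome 9 (13297957 to 13709388, plus strand). The ligand genes lie on chromosome 17 (Dll1, 15367354 to 15376872, minus strand) and chromosome 2 (Jag1, 137081456 to 137116644, minus strand), and the receptor genes on chromosome 2 (Notch1, 26457903 to 26516663, minus strand) and chromosome 3 (Notch2, 98013527 to 98150361, plus strand). Rbpj spans 191.2 kb of chromosome 5 (53466152 to 53657362, plus strand). Hes1 lies on chromosome 16 (30064384 to 30067796, plus strand) and Hey1 on chromosome 3 (8663359 to 8667256, minus strand). Rbpj shares its span with the opposite-strand genes Gm10441 and Gm40304, and Maml2 with the opposite-strand gene Gm17571. The strand setting of the counting is not given in the sources used here, so reads of such partners cannot be told apart.

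The promoters of the genes that led to the choice, Hes5 and Maml2, are printed because one is a target of the RBPJ complex and the other encodes a part of it. Sequences are from RefSeq on GRCm38.p6, 250 bases upstream of the start, 5′ to 3′ on the gene's strand, and capitals mark the RBPJ motif GTGGGAA or its reverse complement.
Hes5, chr4:154960673-154960922 (plus strand): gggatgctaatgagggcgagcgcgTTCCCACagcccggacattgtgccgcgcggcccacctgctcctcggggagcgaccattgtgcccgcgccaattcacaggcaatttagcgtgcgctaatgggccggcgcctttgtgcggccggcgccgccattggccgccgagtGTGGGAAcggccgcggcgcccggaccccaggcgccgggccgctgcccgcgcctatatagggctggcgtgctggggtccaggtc
Maml2, chr9:13297708-13297957 (plus strand): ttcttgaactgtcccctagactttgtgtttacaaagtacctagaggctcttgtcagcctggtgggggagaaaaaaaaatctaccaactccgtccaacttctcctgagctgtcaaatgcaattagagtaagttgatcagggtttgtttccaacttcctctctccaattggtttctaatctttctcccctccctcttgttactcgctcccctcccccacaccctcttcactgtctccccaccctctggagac
The Hes5 window holds the motif 2 times, at 226 to 220 bases upstream of the start on the minus strand and at 83 to 77 bases upstream on the plus strand. Among the 9 genes, 7 had a promoter in the table, and the motif was found in no other window of these 7. Over all genes it is in 1779 of 32851 promoters of the same length (5.42%), searched on both strands. The shorter core TGGGAA, which every GTGGGAA contains, is in 21.6% of promoters and was also found in the Rbpj windows and in a second Maml2 window. A match is a description of these letters and not a binding site.

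The libraries held 54426522 to 70741809 UMIs in 7068 to 9795 cell barcodes, and the largest overlap of barcodes between 2 libraries was 0.333%. After filtering and doublet removal 46876 cells remained, in 35 clusters, of which 33 were named from markers in 11 classes. Class names stand for cells that resemble the named type by these markers. In 6 of the 7 classes tested the class's own markers had the highest summed level of the 11 lists. In microglia they came second, at 4760 CPM (counts scaled to a common total in each library and class) against 5089 for neuronal markers, and the endothelial class also held 4987 CPM of pericyte markers beside 11660 CPM of its own. Of the 2 further classes in the order of levels, fibroblasts held 1551 CPM of their own markers against 3769 of neuronal and 2685 of astrocyte markers, and committed precursors 10440 against 12820 of precursor markers. Sevoflurane 1 stood apart by sex-linked genes. Xist, which silences an X chromosome in females, was at 1397 CPM there and at 0.53 to 1.21 elsewhere, and 4 Y-linked genes summed to 0.37 CPM there and to 350 to 382 elsewhere, so the values without it are given where a result rests on it. Choroid plexus cells were counted 59, 16 and 97 times in Control and not once in Sevoflurane.

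Each gene had its own order of the 9 classes that had a level in all 6 libraries. Hes5, which encodes a repressor that blocks differentiation, was highest in astrocytes (42.5 ± 20.8 CPM, mean ± SD, n = 6 libraries), followed by oligodendrocyte precursors (33.3 ± 11.5), and the 2 classes overlapped, with astrocytes above in 4 of 6 libraries. Next came fibroblasts at 6.03 ± 5.67 CPM, and neurons were lowest at 1.00 ± 0.33 CPM. The step from precursors to fibroblasts was larger than the spread, with every library of precursors above every library of fibroblasts. The first rank of astrocytes depended on the group. In Control the mean of Hes5 was 58.2 CPM in astrocytes and 32.8 in the main precursor cluster. In Sevoflurane these means were 26.9 and 30.6 CPM. Dll1, a ligand, was highest in oligodendrocyte precursors (26.1 ± 5.2 CPM) and at or below 7.66 CPM on average in every other class of the 9 compared. Among the 9 classes the ligand gene Jag1 was highest in endothelial cells (73.5 ± 28.6 CPM). These were above fibroblasts (27.9 ± 17.2) in 6 of 6 libraries, with overlapping ranges. Pericytes, outside the 9 classes since Control 2 and Sevoflurane 1 held none, had a similar level of Jag1. Their mean was 72.9 ± 35.0 CPM (n = 3 libraries), so a high level was not particular to endothelial cells.

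Notch1 was at 275 ± 50.6 CPM in endothelial cells, apart from the next class. Precursors (83.3 ± 6.3) and astrocytes (81.0 ± 20.7) overlapped, with precursors above in 3 of 6 libraries. These were the Sevoflurane libraries, and astrocytes were above in each Control library. The spread in astrocytes thus takes in a difference between the groups. Notch2 had another order, led among the 9 classes by fibroblasts (278 ± 115 CPM) and then by microglia (137 ± 23.9) and astrocytes (133 ± 24.0), which overlapped, and it was lowest in oligodendrocyte precursors (7.86 ± 5.08 CPM). Choroid plexus cells, outside these 9 classes since no Sevoflurane library held any, were above them all, at 548, 451 and 575 CPM of Notch2 in Control. Maml2 was highest in ependymal cells (1633 ± 172 CPM), committed precursors (1372 ± 613), precursors (1107 ± 233) and astrocytes (1095 ± 230), which overlapped one after the other, and lowest in oligodendrocytes (93.1 ± 22.1 CPM). Rbpj was highest in microglia (191 ± 84.6 CPM), overlapping with fibroblasts (113 ± 14.2), and lowest in neurons (31.5 ± 2.7 CPM). The first rank of microglia came with the 47 cells of the class that carry border macrophage markers, and its other cells were at 83.5 CPM (pooled), below the mean of fibroblasts. The target genes Hes1 (85.2 ± 29.0 CPM) and Hey1 (35.0 ± 13.2 CPM) were both highest in endothelial cells, and for Hes1 these were apart from astrocytes, the next class at 33.4 ± 7.1 CPM. The highest of the tested classes was unchanged for 9 of 9 genes with doublets kept, with finer clusters and with a class given to each cell. Fibroblasts were not part of this check. With doublets kept, Rbpj in microglia was at only 81.4 ± 8.3 CPM, within the spread of endothelial cells at 73.7 ± 17.6.

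**Figure D1:**
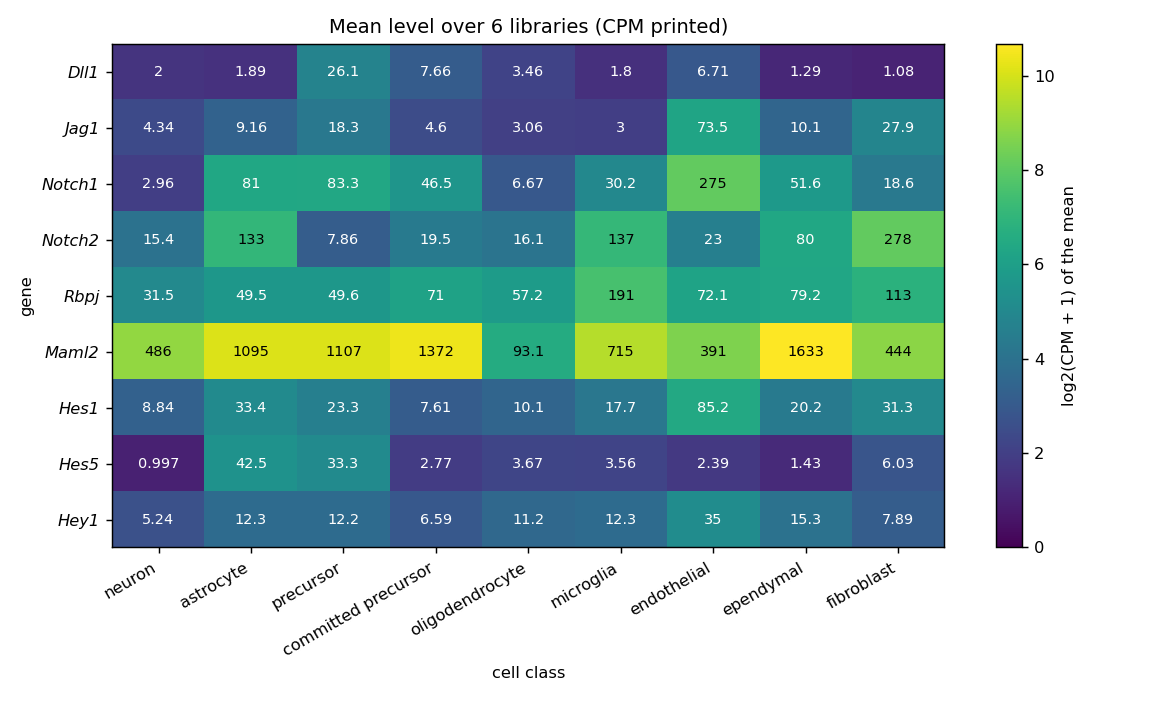
Mean level of each gene (vertical axis) in each of 9 cell classes (horizontal axis), as CPM of counts summed per library and averaged over the 6 libraries; colour is log2(CPM + 1) of that mean, and colours should be read along a gene, not between genes. Hes5 reads 42.5 in astrocytes and 33.3 in precursors against at most 6.03 elsewhere, and Notch1 peaks at 275 in endothelial cells.

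In astrocytes, the support cells of synapses and vessels, Hes5, Notch1 and Maml2 stood lower in every Sevoflurane library than in every Control library. Normalized Hes5 levels were 46.7, 83.4 and 52.3 CPM in Control 1, 2 and 3 and 28, 30.4 and 20.5 CPM in Sevoflurane 1, 2 and 3. The groups did not overlap, and Control 2 lay far above the other 5 libraries. The log2 fold change of sevoflurane over control was -1.24 (SE 0.23), from 556 UMIs in 4096 cells. It was -0.93 without Control 2, and -1.28 without Sevoflurane 1.

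The receptor and the coactivator had the same direction in this class. Notch1 was at 99.6, 107 and 104 CPM in Control and at 60.9, 55.4 and 67.4 CPM in Sevoflurane (log2 fold change -0.76, SE 0.13). Its libraries lay close together within each group, and the groups were well apart. Maml2 was at 1337, 1478 and 1195 CPM against 1027, 798 and 842.5 CPM (-0.59, SE 0.13). Here Sevoflurane 1 was nearest to the Control libraries, without overlap.

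The other 5 genes that passed the filter on low counts overlapped between the groups in astrocytes. The ligand gene Jag1 was at 6.25, 15.6 and 13.1 CPM in Control against 6.58, 6.60 and 7.89 in Sevoflurane (log2 fold change -0.72, SE 0.34), with Control 1 below all 3 Sevoflurane libraries. Hes1, a repressor closely related to Hes5, was at 33.7, 40.1 and 43.1 CPM against 21.4, 35.2 and 29.6 (-0.39, SE 0.19), where Sevoflurane 2 lay above Control 1. The fold changes of Notch2 (0.17, SE 0.16), Rbpj (0.17, SE 0.18) and Hey1 (-0.10, SE 0.27) were of the size of their errors or smaller. Dll1 had 21 UMIs and did not pass the filter.

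Groups that do not overlap with the lower values in Sevoflurane were found for 3 of the 8 genes, where the share over all 12332 genes of this class was 10.5%, and for the higher direction 0 of 8 against 9.26%. Since this contrast led to the choice of the genes, nothing is read from these counts. Of 72 Notch pathway genes in 8 lists, 59 passed the filter, of which 8 had non-overlapping groups with the lower values in Sevoflurane and 4 with the higher. The receptor partner Dtx1, an E3 ligase of the Deltex family, was at 54.7 ± 7.1 CPM in Control and 39.7 ± 2.5 in Sevoflurane (log2 fold change -0.46, SE 0.15). In the other direction, Hey2, a repressor of the HEY family, was at 7.70, 8.82 and 9.81 CPM in Control and at 18.9, 12.8 and 12.6 in Sevoflurane (0.69, SE 0.27).

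Most astrocytes had no Hes5 UMI, and the lower level went with fewer cells that had one. Cells without a Hes5 UMI made up 88.6%, 82.3% and 88.8% of astrocytes in Control and 92.5%, 93.3% and 94.0% in Sevoflurane. With each cell thinned to 2000 UMIs, which left out 311 and 259 shallower cells, the share of cells with at least 1 Hes5 UMI was 8.10%, 13.9% and 9.84% in Control and 5.13%, 5.93% and 3.22% in Sevoflurane. The unthinned shares were 11.4%, 17.7% and 11.2% against 7.46%, 6.68% and 5.96%, so the groups were apart in both counts. In microglia, a class that should lack Hes5, the unthinned share was 0.77% in Control and 0.71% in Sevoflurane on average, and the thinned share 0 to 2.54%. The median depth was 2620 to 3176 UMIs in astrocytes and 1850 to 2239 in microglia.

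Some marker lists moved with these astrocyte values. The sum of 10 choroid plexus markers was 166 to 1022 CPM in Control astrocytes and 20.4 to 36.4 in Sevoflurane, with 2 of the 10 apart. The sum of 9 oligodendrocyte precursor markers was 1578 to 1902 against 1410 to 1505 CPM (2 of 9 lower and apart), that of 8 committed precursor markers 910 to 963 against 827 to 858 (4 of 8 lower), and that of 6 smooth muscle markers 21.1 to 24.8 against 15.7 to 18.0 (3 of 6 lower). Ependymal markers went the other way, at 23.0 to 33.5 against 37.2 to 47.1 CPM (4 of 8 higher), as did neuroblast markers, at 32.8 to 38.5 against 43.3 to 52.1 (1 of 7 higher, with Eomes at 0). The sum of 12 astrocyte markers overlapped, at 11960 to 12190 against 10060 to 12090 CPM, with 3 of the 12 lower and apart and 1 higher and apart. Their part in the values of the Notch genes was not tested.

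**Figure D2:**
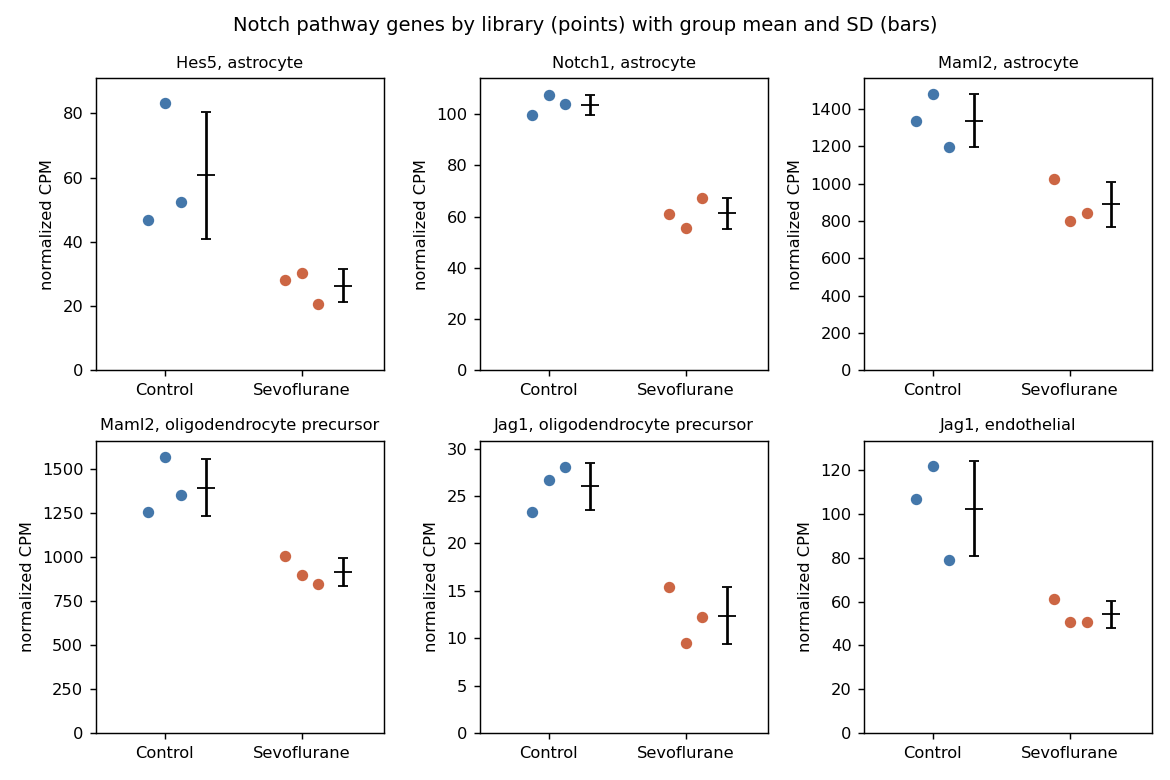
Normalized CPM (vertical axes, from 0) of 4 genes in 6 gene and class pairs, one point per library, with Control in blue and Sevoflurane in orange, and the mean with its SD over 3 libraries in black beside the points. In each panel the 3 Sevoflurane points lie below the 3 Control points, as for Hes5 in astrocytes with 46.7 to 83.4 against 20.5 to 30.4 CPM. Only pairs with such groups are shown, and all but the endothelial pair are from the 2 classes used to choose the genes. In each of those 2 classes 5 of the 8 genes that passed the filter overlapped between the groups.

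In oligodendrocyte precursors, the dividing cells that give rise to myelinating cells, Maml2, Jag1 and Notch1 stood lower in all 3 Sevoflurane libraries. Maml2 was at 1253, 1569 and 1354 CPM in Control and at 1003, 895 and 846 CPM in Sevoflurane (log2 fold change -0.61, SE 0.11, 4675 UMIs in 1142 cells). The groups were apart, and the fold change was -0.68 without Sevoflurane 1. Jag1 was at 23.3, 26.7 and 28.1 against 15.4, 9.45 and 12.3 CPM (-1.05, SE 0.34), from only 76 UMIs. Notch1 was at 93.1, 98.8 and 92.9 against 82.2, 75.6 and 76.3 CPM (-0.29, SE 0.17), apart but with a smaller step.

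Hes5 did not separate the groups in precursors. Its levels were 38.8, 37.4 and 41.0 CPM in Control and 16.7, 48.6 and 24.5 in Sevoflurane (log2 fold change -0.38, SE 0.31), with Sevoflurane 2 above every other library. Dll1 was at 27.9, 22.7 and 36.7 against 20.6, 25.7 and 28.6 CPM (-0.18, SE 0.30), and overlapped too. Rbpj (-0.03, SE 0.22), Hes1 (-0.15, SE 0.33) and Hey1 (-0.16, SE 0.46) overlapped, and Notch2, with 34 UMIs, did not pass the filter.

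All 8 fold changes lay below 0 in precursors, with a median of -0.23 against 0.01 over the 9375 genes of the class, and 3 of 8 genes had non-overlapping groups in the lower direction, where the share over all genes was 8.95%. This contrast also led to the choice, so nothing is read from the counts. Among the 72 pathway genes, 44 passed the filter, 6 of them with non-overlapping groups in the lower direction and 0 in the higher, where the share over all genes was 7.24%. Outside the 9 genes, Ep300, which encodes a histone acetyltransferase recruited by Mastermind proteins, was at 121.5 ± 12.3 CPM in Control and 104 ± 2.7 CPM in Sevoflurane (log2 fold change -0.22, SE 0.16).

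Most precursors had Maml2 UMIs, and more cells had few of them in Sevoflurane, while the most UMIs in a cell overlapped between the groups (26, 19 and 12 in Control and 15, 16 and 26 in Sevoflurane). Cells without a Maml2 UMI made up 3.68%, 2.03% and 5.84% in Control and 13%, 13.2% and 12.8% in Sevoflurane. Cells with 3 or more were 77.3%, 77.2% and 74.5% against 54.0%, 47.5% and 48.7%, and the mean was 4.96, 5.96 and 4.58 UMIs per cell against 3.27, 3.03 and 3.32. These values are not corrected for depth. The median depth of precursors was 3879, 3747 and 3460 UMIs in Control and 3175, 3249 and 3728 in Sevoflurane. After thinning to 2000 UMIs (26 and 63 cells left out) the share of cells with Maml2 was 89.4%, 88.8% and 82.1% against 84.3%, 78.1% and 74.1%, and Control 3 lay below Sevoflurane 1. At 1000 UMIs (4 and 17 cells left out) the groups were apart, at 67.4% to 71.9% against 46.4% to 55.3%. The precursor markers themselves were lower in Sevoflurane, with a sum of 15530 to 16600 CPM in Control and 13200 to 14880 CPM in Sevoflurane (4 of 9 lower and apart). Choroid plexus markers were lower as well, at 186 to 828 against 12.2 to 22.0 CPM (2 of 10 lower), and the summed microglia markers were higher, at 95.4 to 112 against 115 to 129 CPM, although 1 of those 10 was apart in the lower direction. Their part in the result was not tested.

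**Figure D3:**
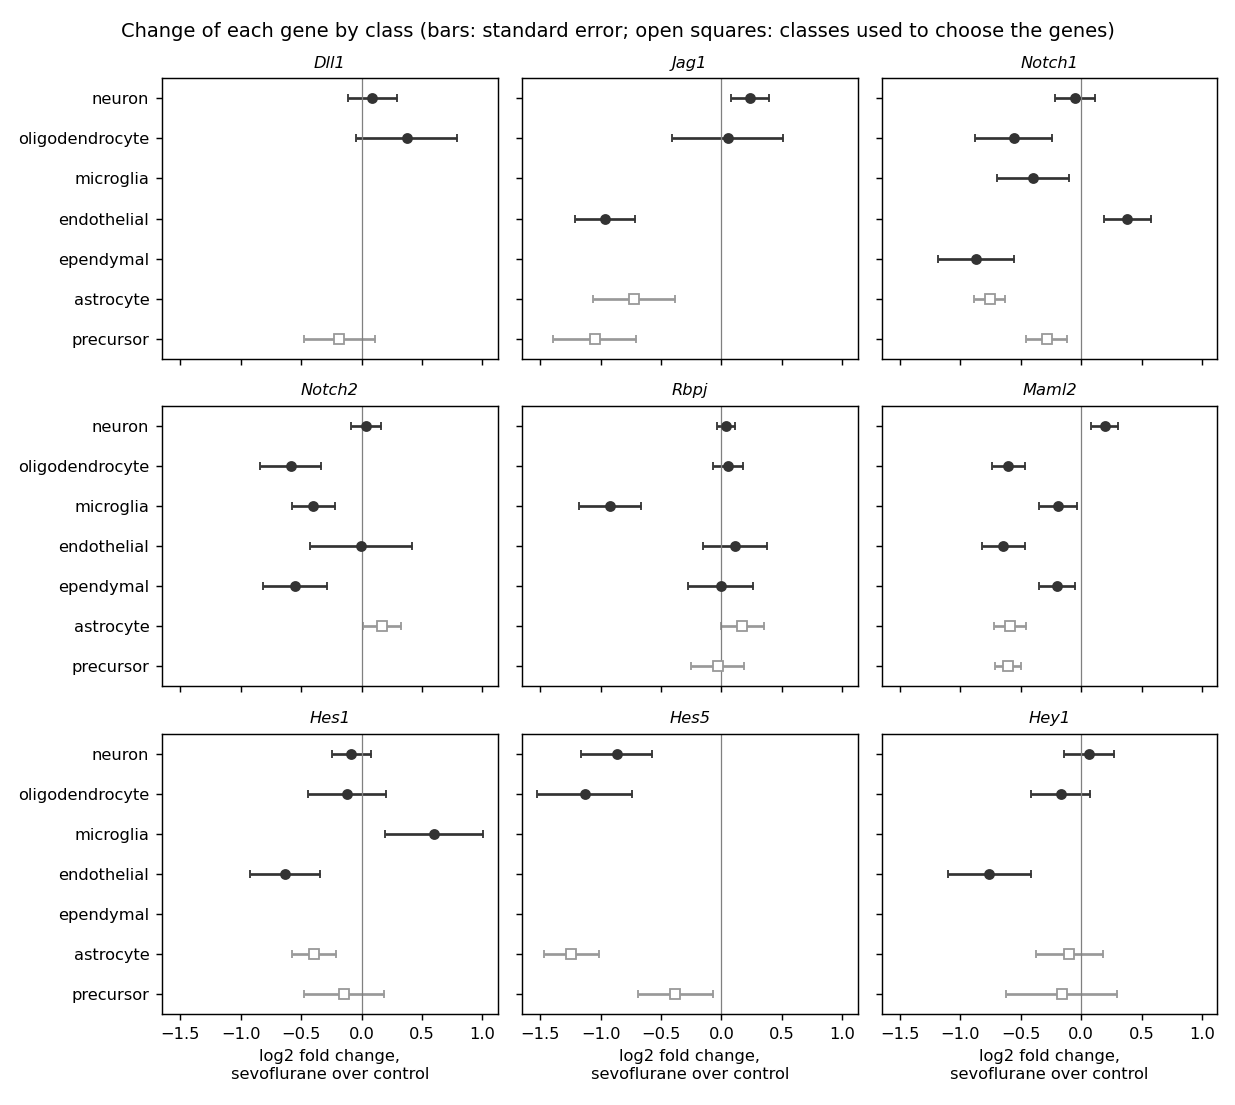
Log2 fold change of sevoflurane over control (horizontal axes) in 7 cell classes (vertical axes), one panel per gene, with bars of 1 standard error from edgeR; filled points are classes in which the gene was tested and open squares the 2 classes used to choose the genes, and a missing point is a gene under the filter on low counts. Maml2 lies between -0.59 and -0.64 in astrocytes, precursors, oligodendrocytes and endothelial cells and at 0.20 in neurons.

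In the 5 classes not used for the choice, 1 of the 9 genes passed the test in 1 class: Jag1 fell in endothelial cells, where it is a ligand between neighbouring vessel cells. Its levels were 107, 122 and 78.9 CPM in Control and 61.2, 50.7 and 50.6 CPM in Sevoflurane. All Sevoflurane libraries were below all Control libraries, and the log2 fold change was -0.96 (SE 0.25, adjusted p = 0.0493 in edgeR's quasi-likelihood test with Benjamini-Hochberg adjustment over 7811 genes). Of all genes in this class 2.29% passed, and 1 of the 7 Notch genes that could be tested.

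The call on Jag1 rested on each library. Without any of the 6 the adjusted p in edgeR lay between 0.050 (without Sevoflurane 1) and 0.190 (without Sevoflurane 2), with 0.175, 0.115 and 0.0612 without Control 1, 2 and 3 and 0.161 without Sevoflurane 3. The fold change stayed between -1.10 and -0.85. In DESeq2 the adjusted p was 0.1645. The class is cluster 12 alone, and with 42 of its cells drawn at random from each library the fold change was -0.63 (edgeR adjusted p = 0.491). The class counts only 42 to 169 cells per library. Of its 647 cells, 47 carried 3 or more UMIs of smooth muscle markers (7.26%), and these cells held 74 of the 219 Jag1 UMIs (33.8%). Per UMI the pooled Jag1 level was 122 CPM in them and 61.5 CPM in the other cells. Without them, an alternative chosen after seeing the data, Jag1 was at 69.0, 107 and 78.4 CPM of summed counts against 59.0, 41.1 and 38.3, and the fold change was -0.91 (edgeR, adjusted p = 0.151).

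Dll4, a ligand gene of the vessel tip cell outside the 9 genes, fell with Jag1 in endothelial cells. It was at 41.2, 53.3 and 26.3 CPM in Control and 10.2, 9.22 and 15.1 CPM in Sevoflurane, without overlap, with 75 UMIs in all (log2 fold change -1.69, SE 0.40, edgeR adjusted p = 0.0363). In the cells without smooth muscle markers it was at 35.4, 64.1 and 28.2 against 9.84, 10.3 and 8.33 CPM of summed counts. The adjusted p in edgeR was 0.157 without Control 1, 0.109 without Control 2, 0.0621, 0.169 and 0.0759 without Sevoflurane 1, 2 and 3, and 0.0385 without Control 3. Marker sums of the endothelial class moved as well: those of fibroblasts were 105 to 252 CPM in Control and 64.6 to 97.1 in Sevoflurane (3 of 8 lower, with Slc47a1 at 0), those of choroid plexus 91.2 to 697 against 18.5 to 22.0 (1 of 10 lower, with Slc4a5 and Kcne2 at 0), those of oligodendrocytes 790 to 967 against 1043 to 1408 (1 of 10 higher) and those of neural stem cells 137 to 252 against 439 to 882 (1 of 7 higher and 1 lower, with Vnn1 at 0). The sums of the class's own endothelial markers overlapped, at 11580 to 14370 against 10300 to 11770 CPM (4 of 11 lower and apart), as did those of pericytes, at 4535 to 6619 against 4559 to 4999 (2 of 8 lower), and of smooth muscle, at 223 to 798 against 111 to 254 CPM (2 of 6 lower). Their part in these ligand values was not tested.

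Other Notch genes of the endothelial class did not pass the test. Maml2 was at 557, 485 and 482 CPM in Control and 337, 295 and 345 in Sevoflurane, apart by a wide step, with a log2 fold change of -0.64 (SE 0.18) and an edgeR adjusted p of 0.0712. Notch1 overlapped through Control 2 and Sevoflurane 2, at 230, 282 and 250 against 393, 281 and 329 CPM (0.38, SE 0.19, adjusted p = 0.413 in edgeR). The target genes Hes1 (-0.64, SE 0.29, adjusted p = 0.360 in edgeR) and Hey1 (-0.76, SE 0.34, adjusted p = 0.349) overlapped, in both through Sevoflurane 1, the library with the fewest cells of this class. Rbpj (0.11, SE 0.26) and Notch2 (-0.005, SE 0.42) were near 0, and Dll1 and Hes5 did not pass the filter.

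In oligodendrocytes, the myelinating cells, none of 9 genes passed edgeR's test, 3 had an unadjusted p under 0.05 and DESeq2 called 1 (Maml2). Of all genes in the class, 0.482% passed edgeR's test and 13.4% had an unadjusted p under 0.05. Maml2 was at 131, 107 and 103 CPM in Control and 85.3, 72.9 and 65.9 in Sevoflurane, without overlap (log2 fold change -0.60, SE 0.14, adjusted p = 0.0804 in edgeR and 0.0356 in DESeq2). Without Sevoflurane 1 it passed in edgeR, with an adjusted p of 0.0496, and with high-scoring doublets kept it was at -0.06 (adjusted p = 0.891). Hes5 was at 5.61, 5.90 and 3.80 against 2.78, 2.90 and 1.40 CPM, apart but from 60 UMIs (-1.13, SE 0.39, adjusted p = 0.266 in edgeR). Notch2 (-0.59, SE 0.25, adjusted p = 0.343) and Notch1 (-0.56, SE 0.32, adjusted p = 0.479) overlapped in the same edgeR fit. The other 5 genes overlapped too, with fold changes from -0.17 (Hey1) to 0.37 (Dll1). Choroid plexus markers summed to 224 to 1278 CPM in Control and 26.5 to 35.7 in Sevoflurane (3 of 10 lower). Smooth muscle markers were at 12.5 to 21.05 against 7.045 to 10.3 (2 of 6 lower), and ependymal markers at 27.4 to 33.3 against 35.9 to 49.4 (4 of 8 higher). The sum of oligodendrocyte markers overlapped, at 10950 to 11210 against 9301 to 11340 (2 of 10 lower). Their part in these values was not tested.

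In neurons, none of 9 genes passed edgeR's test, 1 had an unadjusted p under 0.05 and DESeq2 called none, where 4.17% of all genes passed and 20.9% had such an unadjusted p. Hes5 was the one with non-overlapping groups, at 1.39, 1.41 and 1.11 CPM in Control and 0.82, 0.91 and 0.42 in Sevoflurane (log2 fold change -0.87, SE 0.29, adjusted p = 0.148 in edgeR), a level near the lowest of any class. The fold changes of the other genes ran from -0.09 (Hes1) to 0.23 (Jag1). Maml2 was at 489, 481 and 384 CPM against 455, 566 and 531 (0.20, SE 0.11, adjusted p = 0.362 in edgeR), and Control 1 and 2 lay above Sevoflurane 1.

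Maml2 in neurons was concentrated in clusters 20 and 21, in which Maml2, Glis3 and Prox1, a transcription factor gene of dentate granule cells, lead. These had 1431 ± 201 and 1559 ± 184 CPM (n = 6 libraries), and the mean was 18.8 to 809 CPM in the other neuron clusters. Within these clusters alone the log2 fold change was 0.07, and in the neurons without them 0.11, both chosen after seeing the data. Cluster 20 held 392, 266 and 437 cells in Control and 1144, 1301 and 718 in Sevoflurane. Cluster 21 held 633, 1656 and 878 against 893, 562 and 887. Among pathway genes outside the 9, Numb, which encodes an inhibitor of Notch receptors, fell in neurons, from 125, 123.5 and 114 CPM to 94.9, 91.3 and 93.4 (log2 fold change -0.37, SE 0.06, edgeR adjusted p = 0.0183). It was the one called gene of the 66 list genes tested there, where 2.64% of all genes passed in the lower direction, and its groups were tight and apart. The adjusted p was 0.0784, 0.0771 and 0.0600 without Control 1, 2 and 3 and 0.0539 without Sevoflurane 2, and stayed under 0.05 without Sevoflurane 1 (0.0348) and Sevoflurane 3 (0.0414). In the neuron class 4 of 12 neuron markers were lower and apart, though their sum overlapped (16520 to 17310 against 16390 to 16520 CPM). The sums of choroid plexus markers were lower (78.5 to 326 against 31.4 to 38.9 CPM), and those of ependymal (9.44 to 11.9 against 12.6 to 18.7) and committed precursor markers (181 to 191 against 192 to 203) higher. Clusters 29 and 34 of this class lay mostly in Sevoflurane, with 141, 194 and 171 cells and 36, 56 and 32 cells there against 9, 6 and 1 and none in Control. With an equal mix of clusters in every library, which leaves out both, Numb was at -0.37 (edgeR adjusted p = 0.0196).

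In microglia, the resident macrophages, none of 5 tested genes passed edgeR's test, 2 had an unadjusted p under 0.05 and DESeq2 called none, where 0.248% of all genes passed and 8.84% had such an unadjusted p. Rbpj was at 195, 276 and 321 CPM in Control and 94.0, 103 and 216 in Sevoflurane (log2 fold change -0.92, SE 0.26, adjusted p = 0.184 in edgeR), with Sevoflurane 3 above Control 1. Without Sevoflurane 3 the fold change was -1.41 (adjusted p = 0.0046). Most of these UMIs lay in a few cells. The 47 of 1634 cells (2.88%) with 3 or more UMIs of border macrophage markers held 353 of the 624 Rbpj UMIs (56.6%), and the pooled Rbpj level was 3224 CPM in them and 83.5 CPM in the other cells.

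Such cells numbered 7, 17 and 11 in Control and 0, 3 and 9 in Sevoflurane. The sum of the 7 border macrophage markers in the class was 479 to 654 CPM in Control and 6.36 to 226 in Sevoflurane (5 of 7 lower and apart). Without these cells, which was chosen after seeing the data, Rbpj was at 77.8, 68.1 and 83.9 CPM of summed counts in Control and 90.7, 83.9 and 95.8 in Sevoflurane, so that the groups touched, and its fold change was 0.21 (SE 0.20, adjusted p = 0.835 in edgeR). Notch2 was at 155, 191 and 143 against 119, 114 and 140 CPM, narrowly apart (-0.40, SE 0.18, adjusted p = 0.524 in edgeR). Without the cells that carry border macrophage markers its groups overlapped. Its levels were then 141.9, 171 and 119.1 CPM of summed counts in Control and 114.5, 110 and 129.4 in Sevoflurane. Hes1 was at 19.9, 15 and 7.96 against 23.1, 22.5 and 22.0 CPM, apart in the higher direction from 61 UMIs (0.60, SE 0.40, adjusted p = 0.725 in edgeR). Maml2 (-0.19, SE 0.16) and Notch1 (-0.40, SE 0.30) overlapped. Choroid plexus markers summed to 245 to 1509 CPM in Control and 16.6 to 22.3 in Sevoflurane (4 of 10 lower), and neutrophil markers to 1.56 to 5.64 against 0. Neural stem markers were higher, at 47.9 to 56.1 against 57.2 to 74.75 (2 of 7 higher), as were B cell markers, at 37.4 to 45.4 against 46.1 to 94.4 (1 of 5 higher). Their part in these values was not tested.

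**Figure D4:**
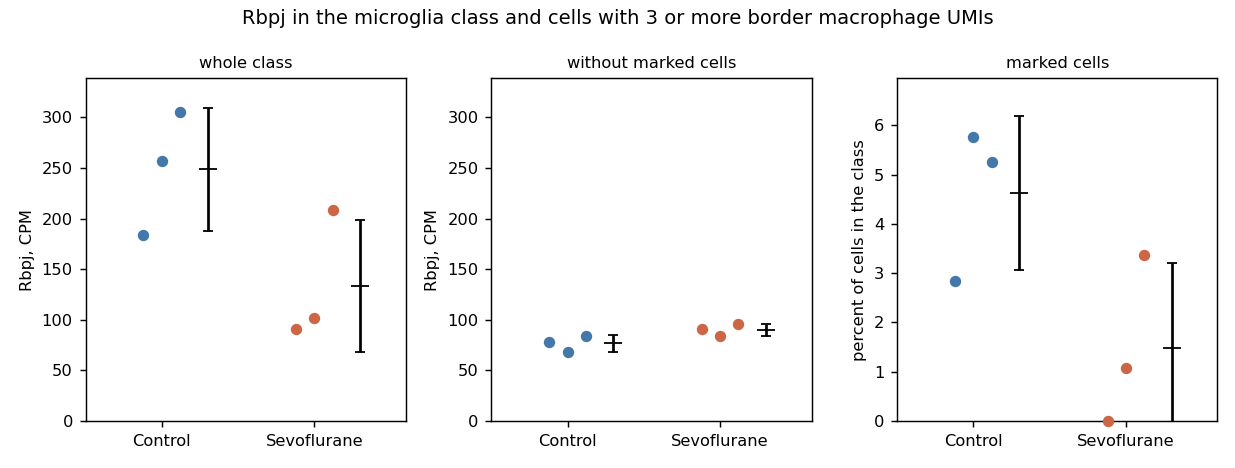
Rbpj in the microglia class as CPM of summed counts, in the whole class (left) and without the cells that carry 3 or more UMIs of border macrophage markers (middle), and the percent of cells so marked (right), one point per library with the mean and SD over 3 libraries beside them. The lower group mean of Sevoflurane in the whole class is not seen without the marked cells, where all 6 libraries lie between 68.1 and 95.8 CPM.

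In ependymal cells, which line the ventricles, none of 4 tested genes passed edgeR's test, 2 had an unadjusted p under 0.05 and DESeq2 called none, where 0.567% of all genes passed and 9.63% had such an unadjusted p. Notch1 was at 65.9, 92.8 and 61.4 CPM in Control and 40.2, 46.7 and 33.8 in Sevoflurane, apart (log2 fold change -0.87, SE 0.31, adjusted p = 0.307 in edgeR). Notch2 was at 106, 106 and 102 against 86.1, 76.4 and 50.7 CPM, also apart (-0.55, SE 0.27, adjusted p = 0.503). Maml2 (-0.20, SE 0.15) and Rbpj (-0.003, SE 0.27) overlapped. Summed choroid plexus markers were lower, at 243 to 824 CPM in Control against 138 to 182 in Sevoflurane (1 of 10 lower). So were endothelial markers, at 65.8 to 95.9 against 36.6 to 51.3 (1 of 11 lower). Their part in these values was not tested.

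Read by role over the 5 tested classes, the calls were few. Among ligand genes, Jag1 and Dll4 fell in endothelial cells, 2 of the 4 ligand genes tested there, and no ligand gene passed elsewhere. No receptor gene passed in any of the 5 classes, with 2 to 4 tested per class. Of the nuclear complex, 11 or 12 genes were tested per class and none passed, and of the endocytosis and turnover list Numb fell in neurons. No gene of the cleavage list, the HES and HEY list, the proneural factors or the ID factors passed. Few of these could be tested in the smaller classes. Of 10 HES and HEY list genes, 7 were tested in neurons, 4 in oligodendrocytes, 3 in endothelial cells, 1 in microglia and 0 in ependymal cells. Of 7 proneural factors, 0 were tested in endothelial and in ependymal cells. Over all 72 pathway genes edgeR called 1 of 66 in neurons, 0 of 56 in oligodendrocytes, 0 of 43 in microglia, 2 of 44 in endothelial cells and 0 of 26 in ependymal cells, all in the lower direction, in which 2.64% of all genes passed in neurons and 1.02% in endothelial cells. An unadjusted p under 0.05 was found for 11 in neurons (20.9% of all genes), 8 in oligodendrocytes (13.4%), 10 in microglia (8.84%), 9 in endothelial cells (13%) and 2 in ependymal cells (9.63%). DESeq2 called 4 in the same classes, with Maml2 in oligodendrocytes and Numb in neurons among them. Of all genes it called 1501 of 18870 in neurons, 145 of 12437 in oligodendrocytes, 19 of 9256 in microglia, 124 of 7811 in endothelial cells and 24 of 7230 in ependymal cells.

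The groups of the 9 genes were compared with all genes by overlap as well. Non-overlapping groups with the lower values in Sevoflurane were found for 1 of 9 genes in neurons (13.8% of all genes), 2 of 9 in oligodendrocytes (10.2%), 1 of 5 in microglia (7.74%), 2 of 7 in endothelial cells (9.32%) and 2 of 4 in ependymal cells (7.84%). In the higher direction it was 1 gene, Hes1 in microglia, where the share of all genes was 6.26%, and none in neurons (13.1%), oligodendrocytes (8.24%), endothelial cells (9.55%) and ependymal cells (7.07%). The median log2 fold change of the tested genes was 0.04 in neurons, -0.17 in oligodendrocytes, -0.40 in microglia, -0.64 in endothelial cells and -0.38 in ependymal cells, and over all genes of these classes it lay between 0.0007 and 0.02. Genes that failed the filter are not in these counts.

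Maml2 is a long gene, and the median fold change of long genes lay below 0 in all 7 classes. The median log2 fold change of genes under 10 kb was 0.21 in precursors, 0.13 in oligodendrocytes and 0.08 in astrocytes, and that of genes over 300 kb -0.23, -0.21 and -0.19. In neurons it went from 0.10 to -0.21 and in endothelial cells from 0.03 to -0.08. With this trend removed from each library, Maml2 in precursors was at -0.42 and Maml2 in oligodendrocytes at -0.39 (edgeR, adjusted p = 0.317), while Hes5 in astrocytes, a short gene, was at -1.35. Whether reads in introns were counted is not given in the sources used here.

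**Figure D5:**
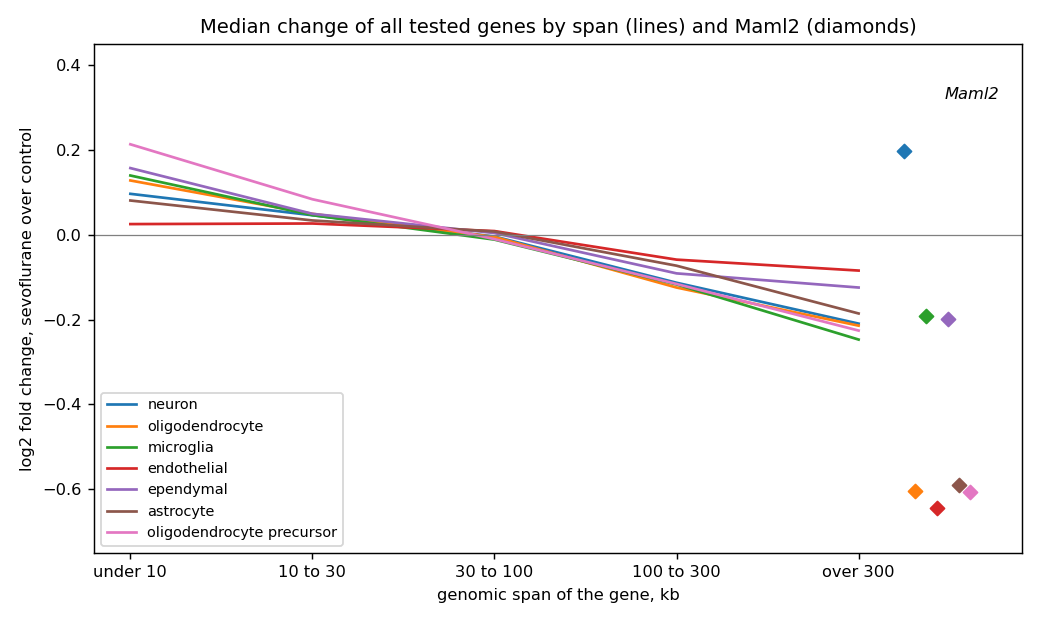
Median log2 fold change of all tested genes (vertical axis) by the genomic span of the gene in kb (horizontal axis, 5 bins), one line per cell class, with the fold change of Maml2 in the same class as a diamond at the right in the same colour. Genes over 300 kb have medians of -0.25 to -0.08, and Maml2 lies below the line of its class in astrocytes, precursors, oligodendrocytes, endothelial and ependymal cells and above it in neurons and microglia.

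The fold changes of 3 genes differed between classes when the difference itself was tested, in 6 pairs of neurons, oligodendrocytes, microglia and endothelial cells. Maml2 in oligodendrocytes minus neurons was -0.76 (SE 0.15, edgeR adjusted p = 0.0269, where 0.506% of all genes passed), Jag1 in endothelial cells minus neurons -1.19 (SE 0.34, adjusted p = 0.0449, where 1.25% passed) and Rbpj in microglia minus neurons -1.0 (SE 0.17, adjusted p = 5.975e-06, where 0.464% passed). The difference for Rbpj was 0.18 (adjusted p = 0.971 in edgeR) without the cells that carry border macrophage markers. Across the alternatives the fold change of Maml2 ran from 0.07 to 0.36 in neurons. In oligodendrocytes it ran from -0.72 to -0.06, the latter with doublets kept, and the difference was not refitted with doublets kept. Maml2 in endothelial cells minus neurons, at -0.83 (SE 0.25), had an adjusted p of 0.0581 in edgeR. In the other 3 pairs none of the 9 genes passed edgeR's test, while of all genes 0.146% passed in microglia minus oligodendrocytes, 0.621% in endothelial cells minus oligodendrocytes and 0.474% in endothelial cells minus microglia.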

How the data were processed

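The authors deposited raw UMI counts for each gene in each cell barcode. Per the file headers, Cell Ranger 6.1.1 produced these counts. The submitters' processing notes also list Seurat and CASAVA 1.8 without saying what each did. Genome build, annotation and the strand and intron settings of counting are not given in the sources used here. A cell was kept if it had 500 UMIs and 300 genes or more and no more than 20% of mitochondrial UMIs. Scrublet scores then removed 5.64% to 7.81% per library as doublets. Cells of all libraries were clustered together in scanpy 1.11.5 without integration and without the 72 Notch pathway genes among the variable genes (2000 variable genes, 30 components, 15 neighbours, Leiden resolution 1), and clusters were named from marker lists.

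Counts were summed per library and class, since cells are not replicates, and were not corrected for free RNA. For classes that had 20 or more cells per library, 3 and 3 libraries were compared in R 4.3.3 by edgeR 4.0.16 and its quasi-likelihood test (TMM normalization, filterByExpr, Benjamini-Hochberg adjustment over all genes of the class, threshold 0.05), which was tested on simulated data. Differences between classes were tested as an interaction with the library as a block, with an estimate of scatter per gene shared by both classes. Levels in 1 class are CPM with TMM factors, and levels across classes, marker sums and marked cells are CPM of the summed counts. DESeq2 1.42.0 and other alternatives are described in the closing section. Gene spans are from GENCODE M21, in which 31107 of 31253 gene IDs (99.5%) were found.

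The 9 genes, the pathway lists and the marker lists were chosen with earlier results of these data known. Named from the lists were the genes called in a tested class and, in astrocytes and precursors, the 5 with the largest fold change among those with a mean of at least 10 CPM and groups that do not overlap. Library depth was 54426522 to 70741809 UMIs. Small counts, as for Hes5 in oligodendrocytes (60) and Jag1 in precursors (76), limit the precision of those folds. One gene that the naming rule selects in precursors is not reported here.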

Additional observations from a re-analysis of the deposited data

Results flagged for a closer look

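The 3 values below mark genes whose change differed between 2 cell classes by a test of the difference itself. Maml2 had a log2 fold change lower by 0.76 in oligodendrocytes than in neurons (-0.76, edgeR adjusted p = 0.0269), and the adjusted p was 0.0554 without Control 1, 0.127 without Control 3, 0.116 without Sevoflurane 2 and 0.110 without Sevoflurane 3. It was 0.0242 without Control 2 and 7.197e-04 without Sevoflurane 1, where the difference was -0.99. The neuron fold change was smaller both within and without the neuron clusters led by Maml2. The difference was not refitted for that split. Jag1 differed by -1.19 between endothelial cells and neurons (edgeR adjusted p = 0.0449). Here the adjusted p was 0.199 without Control 1, 0.249 without Control 2, 0.382 without Sevoflurane 2 and 0.311 without Sevoflurane 3, and 0.236 without the endothelial cells that carry smooth muscle markers.

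Rbpj differed by -1.0 between microglia and neurons (edgeR adjusted p = 5.975e-06), and the adjusted p stayed at or below 0.0183 without any one library. These p-values rest on a scatter shared by both classes and may understate that between microglia libraries. Without the 47 cells that carry border macrophage markers the difference was 0.18. In neurons Rbpj stood at 26.9 to 34.8 CPM in all 6 libraries.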

How the results depend on the processing

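Hes5 in astrocytes kept its direction in 18 alternatives (-1.60 to -0.93) and so did Maml2 in oligodendrocyte precursors (-0.68 to -0.42), the latter at -0.42 with the length trend removed, alone or with the replicate block. These 2 contrasts led to the choice of the genes, and the alternatives use the same libraries. The kept direction is therefore a description and no support for either change. Same-numbered libraries of the 2 groups did not deviate together (correlations of at most 0.026). This check, with 3 libraries per group, cannot tell whether same-numbered libraries were handled together. With the replicate block 1 pathway gene was called in the tested classes in place of 3, also with the length trend removed, and Rbpj in microglia passed (-0.99, edgeR adjusted p = 0.0211).

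The count of the 9 genes called, 1 as reported, was 3 with no filter on low counts (Jag1, Rbpj in microglia and Maml2 in oligodendrocytes), 0 at clustering resolution 2, with the pathway genes kept in clustering and with a class given to each cell, and 0 to 1 without any one library. That of pathway genes was 8 with no filter and 0 to 2 without any one library. The differences between classes numbered 1 (without Sevoflurane 2) to 4 (without Sevoflurane 1). The thinned share differed by -2.56 points for Hes5 and by -17.96 points for Maml2 at 1000 UMIs, against -5.85 and -7.96 at 2000.

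Signs changed mostly near 0. With the length trend removed, Notch2 in endothelial cells was at 0.054, Rbpj in ependymal cells 0.068 (0.055 with the replicate block), Maml2 in microglia 0.019 (0.013), Dll1 in neurons -0.00094 and Hey1 in neurons -0.030 (-0.022). With doublets kept, Rbpj was at 0.21 in microglia and -0.25 in endothelial cells, Jag1 in oligodendrocytes -0.0025 and Hes1 there 0.064. With 42 endothelial cells drawn from each library, Rbpj in that class was at -0.47, and with an equal cluster mix Hey1 in neurons was at -0.056. Rbpj in ependymal cells was at 0.0074 with no filter and 0.037 with a stricter cell filter. In neuron clusters led by Maml2, Notch1 was at 0.088, Notch2 -0.066, Hes1 0.026 and Hey1 -0.097, and in neurons without them Dll1 -0.10 and Jag1 -0.23. Without the marked cells, Rbpj in microglia was at 0.21 and its difference from neurons 0.18. Without any one library the ranges crossed 0 for Notch2 (-0.43 to 0.22) and Rbpj (-0.12 to 0.28) in endothelial cells, Rbpj in ependymal cells (-0.17 to 0.15), in neurons Dll1 (-0.10 to 0.25), Notch1 (-0.18 to 0.082), Notch2 (-0.048 to 0.13), Rbpj (-0.016 to 0.080), Hes1 (-0.24 to 0.056) and Hey1 (-0.10 to 0.20), and in oligodendrocytes Jag1 (-0.25 to 0.27), Hes1 (-0.50 to 0.13) and Hey1 (-0.32 to 0.075). The cause was not tested. DESeq2 gave no adjusted p for Dll4, which in the class without marked cells did not pass the filter. Depth limits Dll1, Hes5 and Hey1 outside their highest classes.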

Other observations

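The genes whose levels across the 9 cell classes were most like those of the Notch genes were found by Pearson's r of log2(CPM + 1) over the 9 class means, among 12236 genes with at least 20 CPM in some class. The classes share libraries, and the small classes add noise, so the values are a description. Hes5 was most like Dipk1c (0.959), Tnc (0.956), which encodes the matrix protein tenascin-C, Cspg5 (0.932), Abhd10 (0.914) and Gabrg1 (0.91). Maml2 was most like Disp1 (0.906), Sfxn1 (0.87), Mthfd2l (0.857), Zfp516 (0.855) and Chst11 (0.84). Dll1 was closest to Mapk7 (0.951), Jag1 to Gtf2ird1 (0.958), Notch1 to Als2cl (0.942), Notch2 to Vamp1 (0.962), Rbpj to Resf1 (0.957), Hes1 to Svbp (0.942) and Hey1 to Zfp422 (0.993).

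Numb, which fell in neurons, was also lower in every Sevoflurane library of oligodendrocytes (141, 140 and 133 CPM against 113, 99.9 and 114) and of microglia (1341, 1542 and 1345 against 959, 809 and 998), with log2 fold changes of -0.34 (SE 0.11, edgeR adjusted p = 0.213) and -0.61 (SE 0.14, adjusted p = 0.0892). In endothelial cells it was at 0.07 (SE 0.18). These 3 classes were added after the values had been seen.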
